A study of Homo sapiens with 6 samples.

Results

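Integrins are cell surface receptors built from 1 alpha and 1 beta subunit. The 10 integrin subunit genes described here encode parts of receptors for collagen, fibronectin, laminin or ligands with an RGD (arginine-glycine-aspartate) motif outside the hemidesmosome. They were taken by gene symbol as ITGA1, ITGA2, ITGA3, ITGA5, ITGAV, ITGB1, ITGB3, ITGB5, ITGB6 and ITGB8. All 10 had a row among the 25349 genes of the table, and all 10 passed the filter on low counts that left 14661 genes for testing. ITGA6 and ITGB4, the pair of the hemidesmosome, are not among them.

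SCC-9, a cell line established from a human tongue squamous carcinoma, received either a nonspecific siRNA (siNC, titled NS) or an siRNA against exon 7 of MKI67 (siE7, titled siKi), MKI67 being the gene of the proliferation antigen Ki67. Both siRNAs were used at 10 nM with Lipofectamine 3000 on day 0 and once more on day 2, after the cells had been passed. Each group holds 3 libraries of poly(A) RNA, and the comparison of siE7 with siNC asks which genes respond to loss of the exon 7-included transcript. Counts per gene cannot tell exon 7-included from exon 7-skipped MKI67, and nothing in the labels says whether the libraries of a group came from separate cultures, so the p-values measure only the spread between these libraries.

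Each integrin alpha subunit is made as a precursor that must pair with a beta subunit in the endoplasmic reticulum before the receptor can reach the cell surface, and ITGB1 is the partner that most alpha subunits share. Bound integrins cluster, recruit talin and kindlin to the beta tail and connect the matrix to actin at focal adhesions. In oral and skin keratinocytes the collagen receptor α2β1 and the laminin receptor α3β1 serve attachment and movement, while αvβ6 is an epithelial receptor that activates latent TGF-beta and is often abundant in oral carcinoma.

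The siRNAs against exon 7 are shown because the whole comparison rests on them. The methods list 3 of them and the one used for these libraries is not named. Their target sites were located in exon 7 of MKI67 on the minus strand of GRCh38, for siE7-1 at chr10:128115209-128115229, for siE7-2 at chr10:128114950-128114970 and for siE7-3 at chr10:128114943-128114963. Capitals mark the 7 bases that the guide strand's seed would pair with, on the assumption that the guide is the complement of the whole site.
siE7-1: gaagctttcaactAGAAATCg
siE7-2: ggtcttagttcagTTGATATc
siE7-3: gttcagttgatatCAACAACt

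MKI67 was at 1072, 1029 and 1077 CPM (counts scaled to library size with TMM factors) in the siNC libraries and at 112, 124 and 108 CPM in the siE7 libraries. The groups were far apart, in the direction of the labels, and the log2 fold change was -3.21 (edgeR adjusted p = 6.712e-08). The libraries held between 25608192 and 29550264 counts on genes. siE7 replicate 1 stood apart from the other siE7 libraries, with a median absolute log2 difference over genes of 0.385 and 0.398 to them, whereas the other pairs within a group differed by 0.128 to 0.138. Pairs across groups differed by 0.427 to 0.457. siE7 replicate 1 was thus nearly as far from the other siE7 libraries as from the siNC libraries, at 0.427 to 0.442. Relative to the mean of siE7 replicates 2 and 3 its median log2 difference was -0.694 among genes with a GC content of 23.1% to 41.3% and 0.399 among those of 58.4% to 76.6%, the lowest and highest of 5 equal bins, so the members are given below with and without it. Of 8 epithelial markers all had a row, and their summed level was 23291 to 24807 CPM with siNC and 21325 to 27813 CPM with siE7, with 5 of them lower and 1 higher by adjusted p. The 6 fibroblast markers summed to 16.5 to 19.7 CPM with siNC and 18.1 to 24.1 CPM with siE7, mostly COL1A1. Of the others COL1A2 reached at most 2.44, DCN 0.621, PDGFRB 0.151, PDGFRA 0.12 and LUM 0.0405 CPM, and DCN was higher with siE7, at a mean of 0.43 against 0.0386 CPM. No endothelial marker exceeded 0.181 CPM, and of the 5 leukocyte markers only CD14 had a row.

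All 10 integrin genes were lower in every siE7 library than in any siNC library, and none was higher. This was also so for 22.7% of all tested genes. By adjusted p under 0.05, 8 of the 10 fell and 0 rose, beside 16.0% of all tested genes that fell and 18.0% that rose. A log2 fold change below -1 together with that adjusted p, the call of a downregulated DEG (differentially expressed gene), held for 5 of the 10, ITGA1, ITGA2, ITGA3, ITGB3 and ITGB5, beside 4.84% of tested genes for downregulated and 7.38% for upregulated DEGs. The median log2 fold change was -0.97 over the members and 0.08 over all tested genes. ITGB6 and ITGB8 missed the adjusted p narrowly at 0.0503 and 0.05404. In bulk RNA, fewer cells that express a gene and less RNA per cell cannot be told apart.

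**Figure D1:**
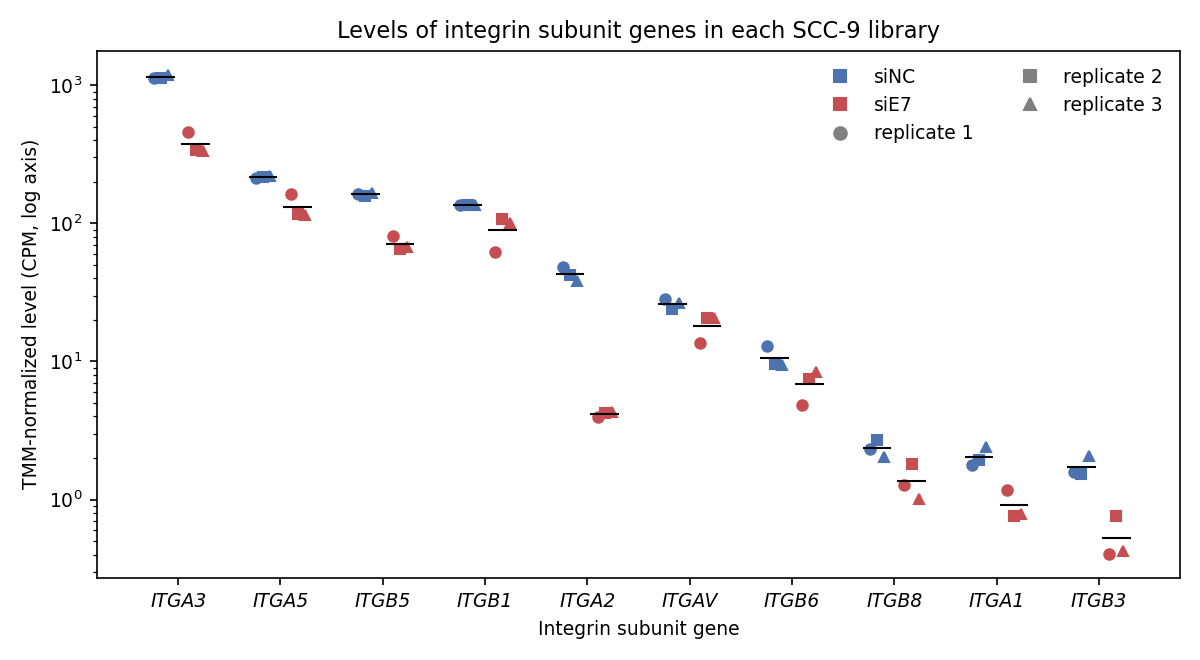
TMM-scaled level of each integrin subunit gene (CPM, log axis) in every library, with siNC in blue, siE7 in red, marker shapes for the replicate number and a bar at the group mean. For each gene the 3 siE7 points lie below the 3 siNC points, and ITGA2 falls from a mean of 43.0 to 4.15 CPM.

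ITGA2 (ENSG00000164171.11, chr5:52989340-53094779, plus strand), the alpha subunit of the collagen receptor α2β1, fell most of the 10. Coordinates here and below are those of GENCODE v44 on GRCh38. It was measured at 47.9, 42.5 and 38.5 CPM with siNC and at 3.95, 4.20 and 4.28 CPM with siE7. The siE7 libraries lay close together and left 9.65% of the siNC level, a 10.4-fold drop. The log2 fold change was -3.37 (95% interval -3.70 to -3.04, standard error 0.151, edgeR adjusted p = 2.455e-07). Only 0.07% of tested genes had a lower log2 fold change, and by p-value ITGA2 came 4th among all tested genes. siE7 replicate 1 did not stand out for ITGA2, at 0.93 times the mean of siE7 replicates 2 and 3, and without it the log2 fold change was -3.40. Its canonical transcript has 30 exons, and none of its exon bases is shared with another annotated gene.

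The ITGA2 promoter is printed because this gene changed most, with capitals on the SP1 motif GGGCGG or its reverse complement. It spans chr5:52989102-52989401 (plus strand, GRCh38.p14, 250 bases before to 50 after the start in RefSeq).
ITGA2 promoter: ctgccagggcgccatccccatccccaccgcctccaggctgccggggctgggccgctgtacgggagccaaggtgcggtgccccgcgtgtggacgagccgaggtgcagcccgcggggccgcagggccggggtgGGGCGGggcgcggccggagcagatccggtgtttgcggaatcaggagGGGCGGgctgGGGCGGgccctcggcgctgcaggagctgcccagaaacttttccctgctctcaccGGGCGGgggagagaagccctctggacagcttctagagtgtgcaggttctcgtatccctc

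This window holds 4 GGGCGG motifs, has a GC content of 72.7% and holds neither the AP-1 motif TGANTCA nor the TEAD motif GGAATG on either strand. Of 35116 RefSeq promoters of the same length, 45.0% hold GGGCGG, 14.0% GGAATG and 7.7% TGANTCA. Promoters were matched for 8 of the 10 members, not for ITGA3 and ITGB3. Among those 8 only ITGA5 holds TGANTCA, and its promoter at chr12:54419217-54419516 (minus strand) is printed for that reason, with all 3 motifs in capitals on either strand.
ITGA5 promoter: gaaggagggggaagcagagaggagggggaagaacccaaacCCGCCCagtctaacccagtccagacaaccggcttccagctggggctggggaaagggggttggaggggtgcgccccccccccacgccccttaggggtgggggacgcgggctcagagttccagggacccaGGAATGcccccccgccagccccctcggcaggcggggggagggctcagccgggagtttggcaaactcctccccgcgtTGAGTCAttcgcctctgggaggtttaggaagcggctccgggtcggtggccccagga

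The ITGB6 promoter at chr2:160200223-160200522 (minus strand) holds none of the 3 motifs and has a GC content of 31.7%, and is printed for that contrast, all in lower case because no motif was found. The promoters of ITGA1 and ITGAV hold none of the 3 motifs either.
ITGB6 promoter: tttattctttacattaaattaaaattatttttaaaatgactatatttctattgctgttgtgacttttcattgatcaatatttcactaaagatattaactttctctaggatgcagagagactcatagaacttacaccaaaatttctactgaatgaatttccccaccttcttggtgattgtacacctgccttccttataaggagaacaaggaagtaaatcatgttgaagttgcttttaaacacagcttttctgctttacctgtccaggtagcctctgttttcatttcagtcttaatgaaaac

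ITGA1 (ENSG00000213949.10, chr5:52787916-52959209, plus strand) lies beside ITGA2 on the same chromosome. It encodes the alpha subunit of α1β1, the other collagen receptor of the set, and was sparsely detected, with 44, 48 and 63 counts in the siNC libraries and 35, 21 and 24 in the siE7 libraries. These counts correspond to 1.78, 1.92 and 2.39 CPM with siNC and to 1.18, 0.761 and 0.785 CPM with siE7. The groups did not overlap, and siE7 replicate 1 was the highest siE7 library. The log2 fold change was -1.16 (95% interval -1.82 to -0.49, edgeR adjusted p = 0.01267) and -1.45 without siE7 replicate 1, but the call was lost without siNC replicate 3 (adjusted p = 0.0648). ITGA1 shares 2.7% of its exon bases with PELO on the same strand, which had 845 to 1317 counts, so part of the few ITGA1 reads may belong to PELO. It also shares 3.1% with RPL17P21, a processed pseudogene on the same strand, and 7.5% with ITGA2-AS1 on the opposite strand. Neither had a row, so reads in those stretches cannot be assigned either.

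ITGA3 (ENSG00000005884.18, chr17:50055968-50090481, plus strand) pairs with ITGB1 as a laminin receptor of basal epithelial cells and was the most abundant of the 10. It was at 1123, 1123 and 1191 CPM with siNC and at 458, 337 and 332 CPM with siE7. All siE7 libraries were well below siNC, with siE7 replicate 1 the highest of them. ITGA3 retained 32.8% of its siNC level, a log2 fold change of -1.61 (95% interval -1.91 to -1.31, edgeR adjusted p = 1.238e-05) that was -1.84 without siE7 replicate 1. None of its exon bases is shared with another gene.

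ITGA5 (ENSG00000161638.11, chr12:54395261-54419266, minus strand), the alpha subunit of the fibronectin receptor α5β1, was at 213, 216 and 221 CPM with siNC and at 164, 117 and 115 CPM with siE7. It fell less than ITGA2 and ITGA3, to 60.9% of siNC, and siE7 replicate 1 was again the highest siE7 library. The log2 fold change was -0.72 (95% interval -1.02 to -0.41, edgeR adjusted p = 0.002799), and -0.96 without siE7 replicate 1.

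ITGB1 (ENSG00000150093.20, chr10:32887273-33005792, minus strand), the beta subunit shared by all 4 alpha subunits above, was nearly constant with siNC, at 135 CPM in each library. With siE7 it was at 61.8, 107 and 101 CPM, so that siE7 replicate 1 held 0.596 times the mean of the other siE7 libraries. The log2 fold change of -0.59 (95% interval -0.97 to -0.21) passed at an edgeR adjusted p of 0.02265. Without siE7 replicate 1 the fold change shrank to -0.44 and the adjusted p to 1.8e-08, whereas without any 1 siNC library the adjusted p lay between 0.0672 and 0.0692.

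ITGAV (ENSG00000138448.12, chr2:186590010-186680901, plus strand), the alpha subunit of the RGD receptors for vitronectin, fibronectin and latent TGF-beta, was at 28.2, 24.0 and 26.4 CPM with siNC and at 13.5, 20.5 and 20.5 CPM with siE7. The groups did not overlap and siE7 replicate 1 was the lowest library, at 0.659 times the mean of the other siE7 libraries. The log2 fold change was -0.53 (95% interval -0.90 to -0.15, edgeR adjusted p = 0.03589) and -0.41 without siE7 replicate 1. The call was lost without any 1 siNC library, at adjusted p between 0.0683 and 0.131. Scaled by library totals alone, ITGAV and ITGB1 had log2 fold changes of -0.35 and -0.41 and did not pass (adjusted p = 0.18 and 0.13), a scaling under which the median of all tested genes moved from 0.08 to 0.25.

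Of the other beta subunits, each a partner of ITGAV, ITGB3 and ITGB5 passed the test and ITGB6 and ITGB8 did not. ITGB5 (ENSG00000082781.12, chr3:124761948-124901418, minus strand), the beta subunit of the vitronectin receptor αvβ5, was at 162, 158 and 167 CPM with siNC and at 81.5, 65.4 and 67.0 CPM with siE7. The siE7 libraries all lay far below siNC, at 43.9% on average, with a log2 fold change of -1.19 (95% interval -1.45 to -0.93, edgeR adjusted p = 3.752e-05). Without siE7 replicate 1 it was -1.35.

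ITGB3 (ENSG00000259207.9, chr17:47253827-47313743, plus strand), known from platelets and osteoclasts and able to pair with ITGAV in many cells, was detected with 39, 38 and 55 counts with siNC and with 12, 21 and 13 counts with siE7. The corresponding levels were 1.58, 1.52 and 2.08 CPM and 0.405, 0.761 and 0.425 CPM. The groups were apart at this low level, and the log2 fold change was -1.71 with a wide 95% interval of -2.50 to -0.91 (edgeR adjusted p = 0.004266), or -1.61 without siE7 replicate 1. ITGB3 shares 33.2% of its exon bases with a protein-coding gene annotated on the same strand, ENSG00000259753, which had no row in the table, so reads in that stretch cannot be assigned to either.

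ITGB6 (ENSG00000115221.12, chr2:160099667-160200313, minus strand), the epithelial partner in αvβ6, was at 13.0, 9.57 and 9.43 CPM with siNC and at 4.82, 7.50 and 8.37 CPM with siE7. siNC replicate 1 was the highest library and siE7 replicate 1 the lowest, while the nearest libraries of the groups, 9.43 and 8.37 CPM, were close. The log2 fold change of -0.63 (95% interval -1.12 to -0.13) did not pass (edgeR adjusted p = 0.0503). DESeq2 gave -0.69 with an adjusted p of 0.0143. Without siE7 replicate 1 the value was -0.48 with an adjusted p of 0.00485, and the call was made in 8 of the 16 alternative settings. Of its exon bases 16.7% are shared with a long noncoding RNA gene on the same strand that had at most 1 count in any library.

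ITGB8 (ENSG00000105855.10, chr7:20330702-20415754, plus strand), whose αvβ8 receptor also binds latent TGF-beta, was at 2.31, 2.72 and 2.04 CPM with siNC and at 1.28, 1.81 and 1.01 CPM with siE7. The lowest siNC and highest siE7 libraries were close here too. Its log2 fold change of -0.79 (95% interval -1.42 to -0.16) did not pass (edgeR adjusted p = 0.05404), and was -0.81 with an adjusted p of 0.0219 without siE7 replicate 1.

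**Figure D2:**
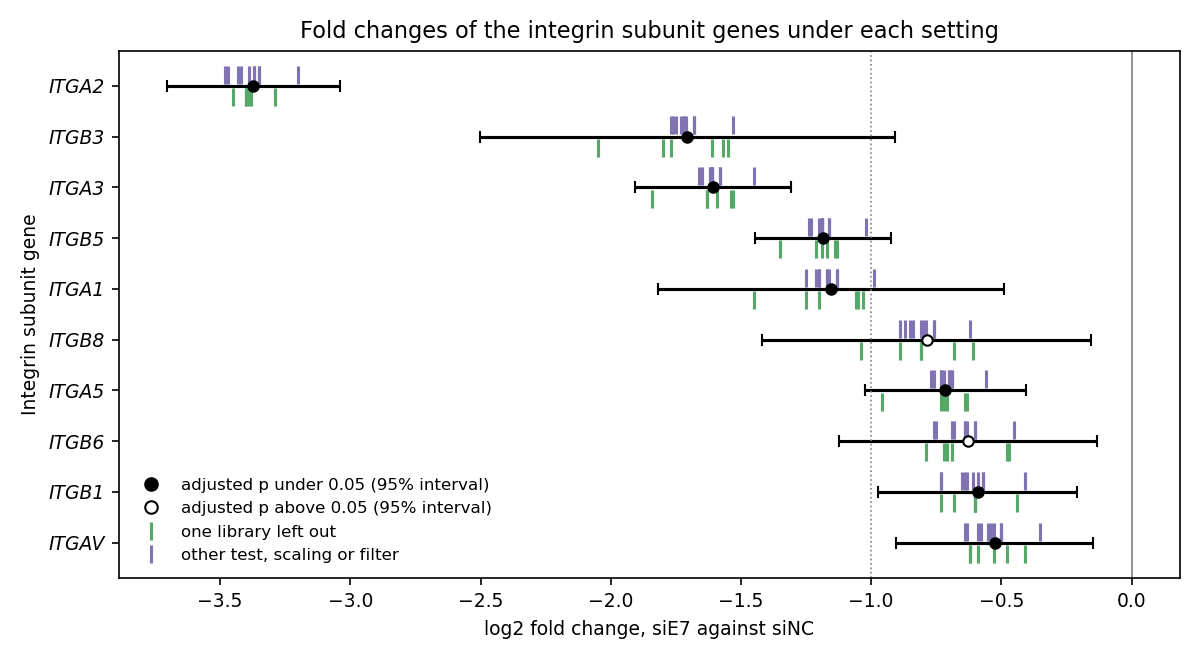
Log2 fold change of siE7 against siNC for each integrin subunit gene, with its 95% interval (filled points pass an adjusted p of 0.05). Ticks above a point give the value under another test, scaling or filter and ticks below it the value with 1 library left out, and all 160 of these values are below 0.

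siE7 replicate 1 deviated from the other siE7 libraries in both directions across the members. ITGA3, ITGA5 and ITGB5, whose canonical transcripts have a GC content of 60.9%, 58.0% and 54.6%, were higher in it by 0.46, 0.49 and 0.30 on the log2 scale. ITGAV, ITGB1 and ITGB6, with a GC content of 38.3%, 39.5% and 40.2%, had differences of -0.60, -0.75 and -0.71. ITGA1, with a GC content of 38.7% but few counts, went the other way at 0.60, and ITGA2 and ITGB8 were near 0 at -0.10 and -0.08. ITGB3, with a GC content of 49.7% and few counts, had -0.47, whereas the bin of genes around it had a median of 0.033. Over 14639 tested genes this difference had a Pearson correlation of 0.658 with GC content, compared with -0.047 for siNC replicate 1 measured the same way, and genes of 1 library are not independent. When the GC trend of each library was removed, all 10 members passed an adjusted p of 0.05 and 5 passed the fold threshold too, while the genes that fell by adjusted p rose from 2351 to 3806 of the 14661 tested.

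**Figure D3:**
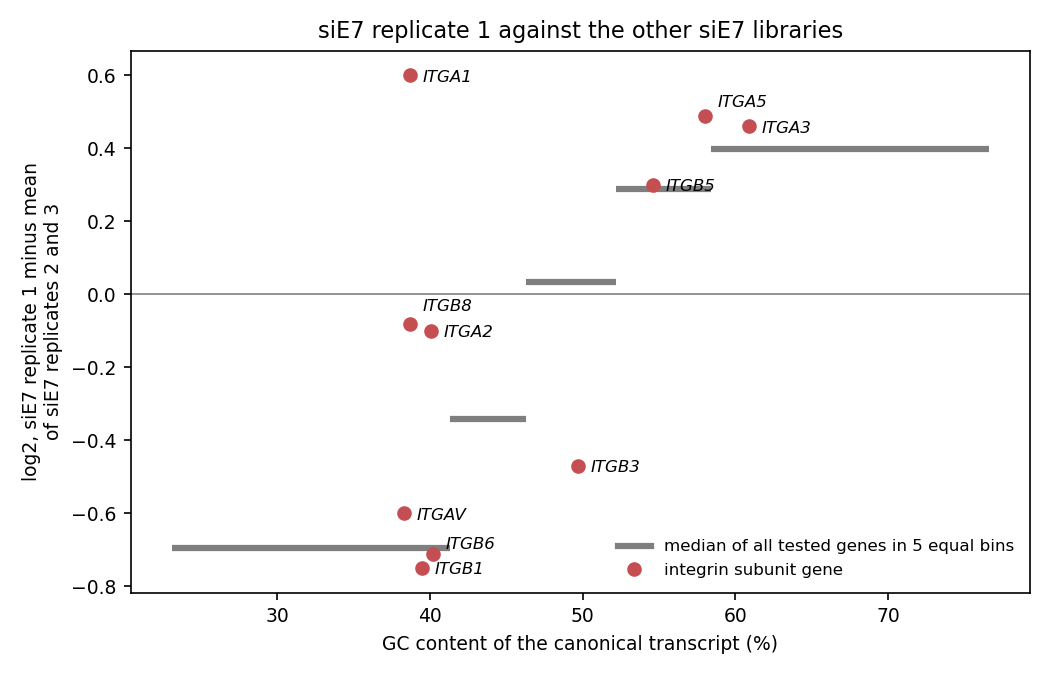
Difference of siE7 replicate 1 from the mean of siE7 replicates 2 and 3 (log2 CPM) against the GC content of the canonical transcript (%), with a red point for each integrin subunit gene and a grey line for the median of all tested genes in each of 5 equal bins. The medians rise from -0.694 in the lowest bin to 0.399 in the highest.

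Levels of different genes were compared per length, as TPM, in which counts are divided by the union of the gene's annotated exons and each library is brought to the same total. The siNC levels ran from ITGA3 at 387 ± 13.4 through ITGA5 at 97.1 ± 1.66, ITGB5 at 82.4 ± 2.92, ITGB1 at 30.7 ± 0.496 and ITGA2 at 18.0 ± 2.22 (mean ± SD, n = 3). Below them came ITGB6 at 6.11 ± 1.26, ITGAV at 4.48 ± 0.423, ITGB3 at 0.837 ± 0.148, ITGB8 at 0.515 ± 0.0708 and ITGA1 at 0.362 ± 0.0542. No neighbours in this order overlapped. With siE7 ITGA3 stayed first at 140 ± 20.2, followed by ITGA5 at 65.3 ± 10.5, ITGB5 at 40.0 ± 3.24 and ITGB1 at 22.8 ± 6.95. ITGA2 dropped from place 5 to place 7 at 1.93 ± 0.163, below ITGB6 at 4.41 ± 1.34 and ITGAV at 3.48 ± 0.896, whose ranges overlapped each other. ITGB8, ITGB3 and ITGA1 closed the order at 0.332 ± 0.102, 0.286 ± 0.113 and 0.179 ± 0.0379, each overlapping its neighbour in this order of 3. The order depends on the length taken for each gene. With the canonical transcript 6 of the 10 places in the siE7 order and 8 in the siNC order were kept. In siNC the ranges of ITGB5 and ITGB1 then overlapped, as did those of ITGB3 and ITGB8.

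Ratios within a library set each alpha subunit against ITGB1 on the same per-length scale. The height of each ratio depends on the length taken, which for ITGB1 is 14561 exon bases here and 3735 in the canonical transcript. The difference between groups does not depend on it. The log2 ratio of ITGA2 to ITGB1 was -0.62, -0.79 and -0.93 with siNC and -3.09, -3.78 and -3.67 with siE7. The groups were apart by -2.74, so ITGA2 fell by more than its partner. The ratio of ITGA3 to ITGB1 also separated, at 3.62, 3.62 and 3.71 with siNC and 3.46, 2.23 and 2.29 with siE7, a difference of -0.99 in which siE7 replicate 1 lay close to siNC. Both ratios had p = 0.1 in an exact permutation test (two-sided), the lowest value open to 3 against 3 libraries, and an adjusted p of 0.3 over the 9 ratios tested.

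The other ratios to ITGB1 overlapped between groups. The log2 ratio of ITGAV to ITGB1 differed by 0.08 from siNC to siE7 (exact p = 0.5), that of ITGA5 by -0.10 (exact p = 1) and that of ITGA1 by -0.55 (exact p = 0.4). Both of the latter rested on single siE7 libraries, ITGA5 being at -0.52 without siE7 replicate 1 and 0.12 without siE7 replicate 2, and ITGA1 at -0.999 and -0.288. For ITGA1 the overlap came from siE7 replicate 1 alone, at -6.06 beside -7.48 and -7.36 in the other siE7 libraries and -6.60 to -6.17 with siNC. For ITGA5 it came from that library alone too, at 2.38 beside 1.11 and 1.17 in the other siE7 libraries and 1.63 to 1.69 with siNC. Against ITGAV, ITGB3 was the one beta subunit whose groups separated, with log2 ratios of -2.65, -2.48 and -2.16 with siNC and -3.56, -3.25 and -4.09 with siE7, a difference of -1.20 (exact p = 0.1, adjusted 0.3). ITGB5, ITGB6 and ITGB8 differed by -0.64, -0.10 and -0.27 relative to ITGAV, with exact p of 0.2, 0.6 and 0.6. The overlap for ITGB5 also came from siE7 replicate 1 alone, at 4.16 beside 3.24 and 3.27 in the other siE7 libraries and 4.09 to 4.29 with siNC.

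**Figure D4:**
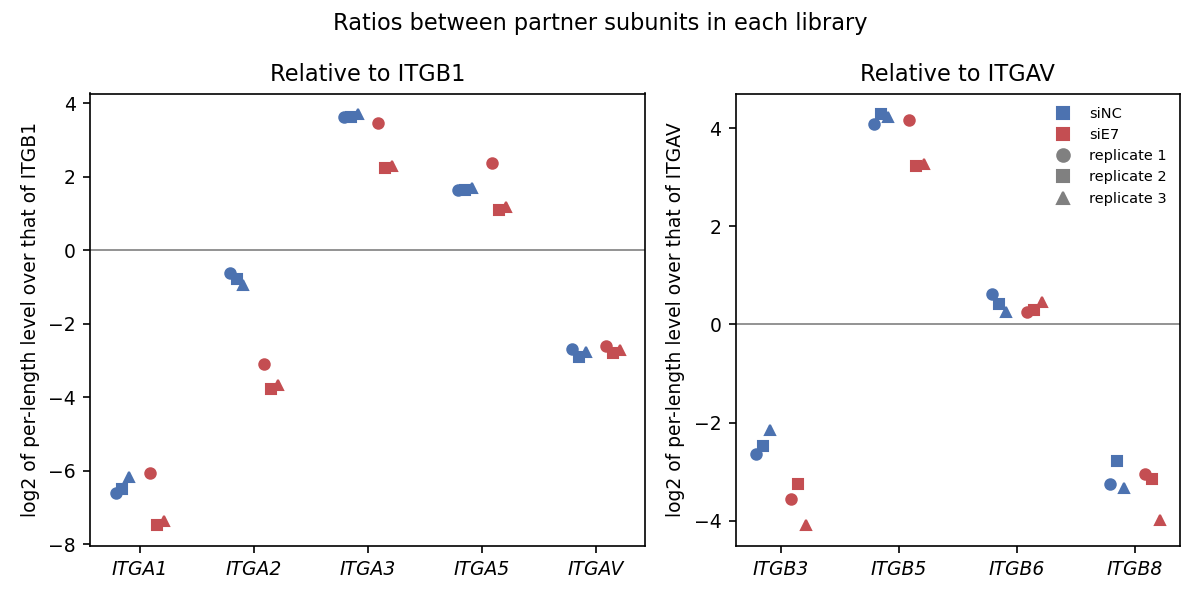
Log2 ratio of the per-length level of each alpha subunit to ITGB1 (left) and of each beta subunit to ITGAV (right) in every library, with siNC in blue, siE7 in red and marker shapes for the replicate number. ITGA2 and ITGA3 on the left and ITGB3 on the right have siE7 points that all lie below the siNC points.

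Of the summed per-length level of the 5 beta subunits that can pair with ITGAV, ITGB5 made up 67.6%, 68.1% and 69.3% with siNC and 70.5%, 53.1% and 54.7% with siE7. ITGB1 made up 25.3%, 26.1% and 25.1% with siNC and 23.9%, 38.8% and 36.9% with siE7. In both cases the share in siE7 replicate 1 resembled siNC and that in the other siE7 libraries did not. The levels in that library, 81.5 CPM for ITGB5 and 61.8 CPM for ITGB1, were nonetheless below every siNC library. Compared with the other siE7 libraries it deviated by 0.30 for ITGB5 and by -0.75 for ITGB1 (log2). The part of its GC trend in these shares was not tested. ITGB6 took 5.05% ± 0.919 and 6.42% ± 1.55, ITGB3 0.693% ± 0.114 and 0.418% ± 0.148, and ITGB8 0.428% ± 0.0709 and 0.489% ± 0.139 with siNC and siE7 (SD, n = 3). None of the 5 shares passed, with exact p from 0.1 for ITGB3 to 0.7 for ITGB8 and adjusted values of 0.5 to 0.7. The leading subunit depends on the length used, since with the canonical transcript ITGB5 and ITGB1 took 48.3% and 47.9% with siNC but 39.2% and 56.7% with siE7.

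Among the other human integrin subunits, 13 of 16 had a row and 7 were tested. Of these 4 fell and 0 rose, beside 16.0% of all tested genes that fell and 18.0% that rose. ITGA6, the alpha subunit of α6β4 and α6β1, had a log2 fold change of -1.70 (edgeR adjusted p = 8.309e-06), and its hemidesmosome partner ITGB4 -0.75 (adjusted p = 0.004664). ITGAE, which with ITGB7 binds E-cadherin, went from 8.09 ± 1.63 to 3.48 ± 0.886 CPM (log2 fold change -1.22, adjusted p = 0.002406). ITGB2, the beta subunit of leukocyte integrins, was under 1.1 CPM in every library and had a log2 fold change of -1.45 (adjusted p = 0.03222), a call lost without any 1 siNC library and without siE7 replicate 3 (adjusted p up to 0.108). ITGA2B, ITGA4 and ITGB7 did not pass, with values of 0.94, 0.68 and 0.08 (adjusted p = 0.1012, 0.1887 and 0.934), all from levels under 1.5 CPM. The median over these 7 genes was -0.75.

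Of 34 genes listed as integrin ligands 26 were tested, and 15 fell while 0 rose, with a median log2 fold change of -0.68. Over all tested genes 16.0% fell and 18.0% rose, with a median of 0.08. The 6 DEGs were all lower, beside 4.84% of all tested genes that were lower DEGs. THBS1, a matricellular protein bound by several integrins, went from 1436 ± 114 to 311 ± 30.1 CPM (log2 fold change -2.21, edgeR adjusted p = 6.641e-07). LAMA3, a laminin alpha chain whose trimer is a ligand of α3β1, had a log2 fold change of -1.89 (adjusted p = 9.367e-07). CCN1, a matricellular ligand of αv and α6β1 integrins, had -1.12. FN1 (fibronectin, the ligand of α5β1) and L1CAM were DEGs named after their values were seen, with log2 fold changes of -1.25 and -1.15. Without siE7 replicate 1 the list held 11 DEGs, while over all tested genes the DEGs went from 710 to 930 lower and from 1082 to 1289 higher.

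The latent TGF-beta list, named for the complexes that αvβ6 and αvβ8 bind, had 7 of 9 genes tested. Of these 2 fell and 1 rose, beside 16.0% of all tested genes that fell and 18.0% that rose. LTBP2 fell from 88.4 ± 1.85 to 17.1 ± 2.70 CPM (log2 fold change -2.37, edgeR adjusted p = 9.367e-07), and LTBP1 rose from 0.419 ± 0.0862 to 1.12 ± 0.344 CPM (1.40, adjusted p = 0.01957). LTBP1 encodes a protein that tethers latent TGF-beta to the matrix, and it was measured at low level. The LTBP1 call was lost without any 1 siNC library and without siE7 replicate 3, at adjusted p of up to 0.0828, and 1 DEG was left in the list without siNC replicate 1 or siNC replicate 3.

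At the cytoplasmic side, 48 of 50 adaptor genes were tested, of which 20 fell and 3 rose (median -0.30). This stood beside 16.0% of all tested genes that fell and 18.0% that rose. The list held 4 lower DEGs and 1 higher, beside 4.84% and 7.38% of all tested genes. ACTN1, the actin crosslinker of focal adhesions, fell from 5043 ± 109 to 1939 ± 301 CPM (log2 fold change -1.38, edgeR adjusted p = 1.715e-05). FERMT1, the kindlin of epithelia that activates integrins through the beta tail, fell from 113.8 ± 3.74 to 49.1 ± 6.03 CPM (-1.21, adjusted p = 3.629e-05). FLNA, which competes for beta tails and crosslinks actin, fell from 2179 ± 77.4 to 1089 ± 241 CPM (adjusted p = 0.0004194), a log2 fold change at the threshold that ranged from -1.26 to -0.89 with 1 library left out. In the other direction, TNS1, a tensin of mature adhesions, rose from 1.06 ± 0.417 to 4.83 ± 0.463 CPM (log2 fold change 2.19, adjusted p = 0.0001909).

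Talin and the scaffold genes moved less. TLN1, the talin that links beta tails to actin, had a log2 fold change of -0.42 (edgeR adjusted p = 0.03542), PXN (paxillin) -0.69 (adjusted p = 0.002873) and VCL (vinculin) -0.80 (adjusted p = 0.0002057). The TLN1 call was lost in 5 of the 6 fits with 1 library left out (adjusted p up to 0.126), all but the one without siE7 replicate 1. FERMT2, the widely expressed kindlin, was at 11.8 ± 0.607 CPM with siNC and 11.6 ± 2.70 with siE7 and did not pass, with a log2 fold change of -0.02 (adjusted p = 0.9378). PTK2, the focal adhesion kinase gene, and ILK did not pass either, at 0.17 and -0.00 (adjusted p = 0.3073 and 0.9912). PTK2B, a DEG of the same list named after its values were seen, had -1.28 (edgeR adjusted p = 0.0005213). Of 27 genes of integrin processing, endocytosis and recycling 24 were tested. Of these 6 fell, 3 rose and 0 were DEGs, with a median of -0.14. The shares over all tested genes were 16.0% for fallen and 18.0% for risen genes, with 4.84% lower and 7.38% higher DEGs.

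**Figure D5:**
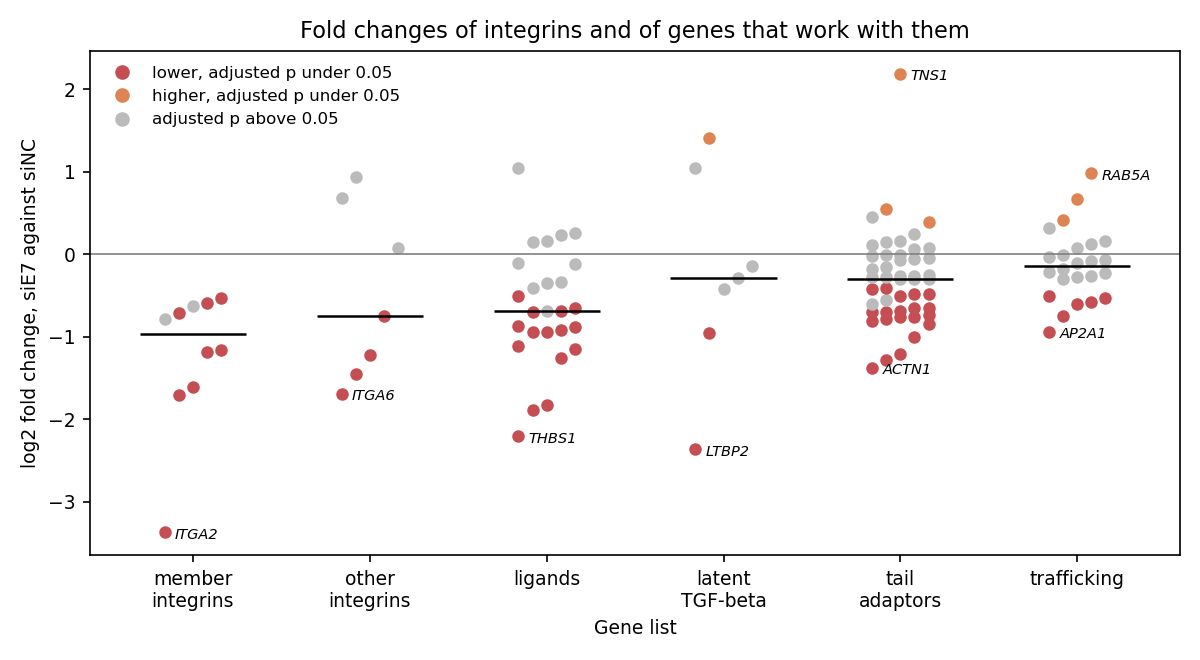
Log2 fold change of every tested gene in 6 lists, coloured by direction where the adjusted p is under 0.05, with a bar at the list's median. The members have a median of -0.97, and the trafficking list of -0.14 holds points on both sides of 0.

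The 3′ UTRs of the members were searched for the letters that the seeds of the listed siRNAs would pair with, in the capitals shown above. The siE7-2 letters are in 5 of the 10 (ITGA1, ITGA2, ITGAV, ITGB6 and ITGB8) and in 13.9% of 15906 UTRs, those of siE7-1 in 2 (ITGA1 and ITGAV) and in 15.8% of UTRs, and those of siE7-3 in 1 (ITGA1) and in 7.5%. The UTRs of the members with a match are 2065 to 6758 bases long, and those of ITGA3, ITGA5, ITGB1, ITGB3 and ITGB5, which hold none, 1032 to 3539 bases. UTR length was not taken into account. ITGA2 and ITGB6 each hold 1, for siE7-2, at chr5:53091012-53091036 (plus strand) and chr2:160099691-160099715 (minus strand), shown as the member that changed most and a member that did not pass, with the match in capitals.
ITGA2 3′ UTR: gtggaagtgcTTGATATgtaagtac
ITGB6 3′ UTR: gtattttgtgTTGATATaaataaac

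Every member had a log2 fold change below 0, though ITGB6 and ITGB8 did not pass the adjusted p. The direction alone therefore cannot set members with a match apart from those without. With siE7, members with a match were at between 9.65% (ITGA2) and 69.5% (ITGAV) of siNC. Those without were at between 30.7% (ITGB3) and 66.4% (ITGB1). If the guide instead pairs 2 bases further in, leaving an overhang, the siE7-1 letters are in ITGA3 and in 15.4% of UTRs, those of siE7-2 in ITGA5, ITGB1 and ITGB6 and in 10.5%, and those of siE7-3 at 2 places in ITGB3 and in 8.8%. A match is a run of letters and not a measured site, and the part of the siRNA's own sequence in these changes was not tested.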

How the data were processed

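The authors deposited whole-number counts of reads per gene, without normalization, for 6 libraries of SCC-9 cells. Per the labels the libraries were directional, poly(A)-selected and sequenced in pairs on a NovaSeq, and the submitters' processing notes name GRCh38, HISAT2 and DESeq2. The counting tool, the annotation release and the use of strand in counting are not given in the sources used here, so reads of overlapping genes may be shared. Groups follow the sample titles, each with 3 libraries counted as replicates.

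filterByExpr of edgeR 4.0.16 (R 4.3.3) kept 14661 of 25349 genes. After TMM scaling, siE7 and siNC were compared by the quasi-likelihood F-test with robust dispersions and Benjamini-Hochberg adjustment over all tested genes. A DEG passed an adjusted p of 0.05 with an absolute log2 fold change over 1, which are the thresholds of the study. CPM values are counts scaled to the TMM-adjusted library size. Per-length levels are counts over the union of exons in GENCODE v44, to which 25267 identifiers matched without version and 20655 with it. Shares and ratios were tested by exact two-sided permutation over libraries, which cannot go under p = 0.1. Counting error is smallest for the abundant genes, and the 95% intervals come from the fit.

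Promoters come from RefSeq (GRCh38.p14), 250 bases before to 50 after the start, and 3′ UTRs from GENCODE. The genes named are all members, MKI67, every other integrin subunit past the filter, the 4 DEGs of smallest p in each list and 7 core adhesion genes. A gene that this rule names among the ligands is not reported here. The members and lists were chosen with earlier results of these data known. Alternatives were DESeq2 1.42.0, other scaling factors, filters and lengths, a replicate block, glmTreat with a fold threshold and each library left out. Removal of the GC trend (lowess, span 0.3) and the canonical transcript as length were chosen after seeing the data. Tables were made with Python 3.11.15, numpy 2.4.6, pandas 2.3.3 and scipy 1.17.1, and plots with matplotlib 3.10.9.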

Additional observations from a re-analysis of the deposited data

How the results depend on the processing

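Under 16 alternative settings each, all 160 values of the members stayed below 0, of which 15 lost and 14 gained an adjusted p under 0.05. ITGA2 and ITGA3 passed under every setting run. edgeR's glmTreat, which asks for a log2 fold change beyond 1, left 2 members by either count, 1 other integrin, 3 ligands, 1 latent TGF-beta gene and 2 adaptors. Over all 14661 tested genes it left 184 lower and 153 higher, compared with 710 and 1082 DEGs in the main fit. Removal of the GC trend gave 4 latent TGF-beta genes. The trafficking list, with 0 DEGs, held 1 with upper-quartile factors, with library totals and with at least 10 counts demanded in every library. With the longest or the canonical transcript as length, 6 of 10 places in the siE7 order and 8 in the siNC order were kept each time.

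With 1 library left out, the member DEGs ranged from 4 to 6 and the members with an adjusted p under 0.05 from 5 (without siNC replicate 3) to 10 (without siE7 replicate 1). The genes that fell over the whole table moved likewise, to 1552 of 15075 and 4422 of 15011 tested. The DEGs of the other lists ranged from 2 to 4 for other integrins, 6 to 11 for ligands (11 without siE7 replicate 1), 1 to 3 for latent TGF-beta, 4 to 5 for adaptors and 0 to 2 for trafficking (2 without siE7 replicate 1). ITGB6 and ITGB8 passed in 8 and 6 of the 16 settings. The cause of these shifts was not tested.

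Same-numbered libraries did not deviate together (correlations of -0.032, -0.014 and -0.042), so the numbers were not taken as pairs. With a replicate block 5 members were DEGs and 10 passed the adjusted p, with ITGB6 at 0.0272 and ITGB8 at 0.047, and the DEGs over all genes were 741 lower and 1078 higher. ITGA1, ITGB3 and ITGB8 rest on under 100 counts per library, so their fold changes are the least precise.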

Other observations

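The trafficking list held no DEG, but 9 of its 24 tested genes passed the adjusted p. Over all tested genes 16.0% passed as lower and 18.0% as higher. The list's genes of smallest p are named here after their values were seen. RAB5A, the GTPase of early endosomes through which internalised integrins pass, rose from 26.8 ± 1.67 to 52.9 ± 14.6 CPM (log2 fold change 0.98, edgeR adjusted p = 0.002313), with siE7 replicate 1 at 36.3 CPM and the others at 63.6 and 58.8. AP2A1, a subunit of the clathrin adaptor AP-2, fell from 71.7 ± 5.19 to 37.4 ± 5.90 CPM (-0.94, adjusted p = 0.0004003). RAB21, RAB11A and RAB25, further GTPases of integrin traffic, did not pass, with log2 fold changes of -0.07, -0.04 and -0.27.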
